A study of Mus musculus with 7 samples.

Results

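The killer cell lectin-like receptor genes were taken as every symbol of the deposited table that begins with Klr followed by a letter from a to i or by k. There were 31 such symbols among 56422, carried by 84 transcript rows, and TPM (a transcript abundance that is divided by length and sums to one fixed total in every library) was summed over the rows of a symbol. They comprised 14 Klra, 6 Klrb, 3 Klrc, 2 Klrg and 2 Klri symbols and 1 each of Klrd1, Klre1, Klrh1 and Klrk1, with 4 of the 31 named as pseudogenes. In all, 28 symbols lay above 0 TPM in at least 3 of the 7 libraries and were compared between groups. Klra11-ps and Klrb1-ps1 were listed at 0 in every library, and Klra14-ps lay above 0 in 2, at 0.12 TPM in control replicate 4 and 0.44 TPM in treated replicate 2.

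Poly(A) RNA had been sequenced from samples labelled as CD8+ T cells, taken from the ascites of mice that model peritoneal metastasis. The 4 control libraries came from mice given no treatment and the 3 treated libraries from mice given propionate together with butyrate, which are bacterial products of fibre fermentation in the gut. Strain, age, tumour line, dose, time and sorting step are not given in the sources used here, and the extraction protocol speaks of tissue. Nor do the labels say whether a library came from 1 animal or a pool. The p-values therefore reflect only how much these samples vary, which may be technical. The third treated library is called so because its column carries a number that no treated sample has.

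Killer cell lectin-like receptors are C-type lectin-like surface proteins of natural killer cells and of T cell subsets, encoded for the most part in a gene complex on mouse chromosome 6. They weigh inhibitory against activating signals. Inhibitory members carry tyrosine motifs that recruit phosphatases when a class I molecule or another self ligand is bound, whereas activating members have short tails and signal through the adaptors DAP10 (Hcst) and DAP12 (Tyrobp). On CD8+ T cells several of them appear after antigen stimulation. Their genes differ in number between mouse strains, above all in the Klra (Ly49) group.

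TPM carries no sequencing depth, so no detection limit could be computed. Between 13914 and 14949 genes reached 1 TPM per library. Cd8a, which encodes the CD8 alpha chain, was at 7.95 to 17.98 TPM in control and 54.25 to 242.23 TPM in treated libraries. Of all genes fitted 1.53% rose by limma with Benjamini-Hochberg adjustment (adjusted p under 0.05), as did all 9 genes of a CD8 T cell marker list. Their summed level was 106 to 186 TPM in control and 528 to 2300 TPM in treated libraries, beside 6150 to 14900 and 3360 to 4120 TPM of 10 macrophage markers, so in every library the macrophage sum exceeded that of the labelled cell type. In bulk samples more cells of a type and more RNA per cell cannot be told apart. Mitochondrially encoded genes held 32.9% of TPM in the third treated library against 13.6% to 18.2% in the other 6. A further 18.4% of TPM in that library, against 8.15% to 10.6%, was listed under 4 mitochondrial-like pseudogenes. In GENCODE M21 transcripts, 99% to 100% of the stretches of 50 bases of these pseudogenes occur in mitochondrially encoded genes.

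All 31 symbols matched RefSeq (GRCm38.p6, an earlier build than the mm39 of the submitters' processing notes), and all 31 lie on chromosome 6. Klre1, Klrd1, Klrk1, Klrc3, Klrc2 and Klrc1 are 6 consecutive genes there with no other RefSeq gene between them, and 5 of the 6 rose in the treated libraries, the exception being Klrc3. This run and the motifs below were picked out after the values were seen. The start-site windows of 4 of these neighbours, from 250 bases before to 50 after the start, are shown with that of Klra2, the most abundant Klra gene, which did not pass the test. Capitals mark the core letters of the RUNX motif, TGTGGT or its reverse complement. The windows, from RefSeq on GRCm38.p6, are Klre1 (chr6:129577963-129578262, plus strand), Klrk1 (chr6:129623815-129624114, minus strand), Klrc2 (chr6:129660547-129660846, minus strand), Klrc1 (chr6:129678924-129679223, minus strand) and Klra2 (chr6:131247313-131247612, minus strand), each written 5′ to 3′ on the gene's strand.
Klre1: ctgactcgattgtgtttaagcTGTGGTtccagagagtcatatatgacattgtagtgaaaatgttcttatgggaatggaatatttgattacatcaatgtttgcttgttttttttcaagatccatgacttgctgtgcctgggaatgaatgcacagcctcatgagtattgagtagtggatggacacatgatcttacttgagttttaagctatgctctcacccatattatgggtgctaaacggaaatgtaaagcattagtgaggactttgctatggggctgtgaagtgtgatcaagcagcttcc
Klrk1: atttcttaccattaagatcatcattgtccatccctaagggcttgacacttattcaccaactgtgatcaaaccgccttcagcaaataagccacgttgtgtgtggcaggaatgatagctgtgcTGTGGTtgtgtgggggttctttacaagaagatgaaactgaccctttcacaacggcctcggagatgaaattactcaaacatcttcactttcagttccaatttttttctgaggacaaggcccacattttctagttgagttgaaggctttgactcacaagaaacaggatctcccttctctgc
Klrc2: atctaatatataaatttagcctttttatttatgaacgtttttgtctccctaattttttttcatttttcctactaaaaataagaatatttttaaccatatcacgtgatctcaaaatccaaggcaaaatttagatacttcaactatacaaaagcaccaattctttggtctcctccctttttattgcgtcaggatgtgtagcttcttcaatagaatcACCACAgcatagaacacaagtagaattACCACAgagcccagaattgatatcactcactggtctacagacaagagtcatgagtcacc
Klrc1: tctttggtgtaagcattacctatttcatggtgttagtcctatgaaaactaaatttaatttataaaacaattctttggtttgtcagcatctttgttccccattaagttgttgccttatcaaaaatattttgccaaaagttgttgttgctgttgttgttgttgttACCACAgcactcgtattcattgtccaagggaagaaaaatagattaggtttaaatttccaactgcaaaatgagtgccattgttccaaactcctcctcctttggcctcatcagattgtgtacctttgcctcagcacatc
Klra2: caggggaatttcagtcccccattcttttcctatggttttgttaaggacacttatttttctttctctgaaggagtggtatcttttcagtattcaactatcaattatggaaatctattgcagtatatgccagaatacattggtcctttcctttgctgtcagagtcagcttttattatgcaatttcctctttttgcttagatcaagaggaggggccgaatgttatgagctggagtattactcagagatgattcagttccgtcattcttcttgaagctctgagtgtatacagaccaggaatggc

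The RUNX letters occurred in 9 of the 29 windows of members (8 of the 24 members that have one), against 16.8% of all 32851 windows. The members are related in sequence, so their windows are not independent. Apart from the windows shown, they were in a further window of Klrc2 that overlaps the one shown. They were also in those of Klrb1a, Klrb1c, Klrc3 and Klra1, which did not pass the test. They were not in that of Klra5, which rose, nor in another start-site window of Klre1. Klrd1, Klrg1 and Klra13-ps, which rose, had no window to search. With the start site counted as 0, they began at position -229 in Klre1, -129 in Klrk1, -36 and -9 in the window of Klrc2 and -87 in Klrc1. A T-box motif (AGGTGTGA) and a PU.1 motif (GAGGAAGT), searched on both strands, were in 1.28% and 3.2% of all windows and in 0 of the 29 member windows, and so overlapped no RUNX letters. These matches are a description of letters in windows of this length only.

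Across the family, 8 of the 28 compared genes rose in the treated libraries and 0 fell in limma with Benjamini-Hochberg adjustment over all 24352 genes fitted, where 1.53% of genes rose and 1.79% fell (3.33% in either direction). At an unadjusted p under 0.05, 18 were higher and 1, Klrg2, was lower, against 6.45% and 17.5% of all genes fitted. Those that rose were Klrc1, Klrk1, Klrd1, Klre1, Klrg1, Klrc2, Klra5 and Klra13-ps. The median log2 fold change, on the log2(TPM + 1) scale, which understates the change of low genes, was 0.66 over the 28 and -0.09 over all genes fitted. Every treated library lay above every control library for 16 of the 28 and below for 2, against 5.28% and 18.2% of all genes fitted. Of the 28, 4 lay above 0 in fewer than 3 control libraries (Klra5, Klra10, Klrc3 and Klri1) and so were compared only because of their treated values. The calls of this fit were sensitive to the libraries used, with 0 called without control replicate 1 or 4 (20 and 16 at an unadjusted p under 0.05), 1 without control replicate 2 and 2 without control replicate 3, and 13 without the third treated library, where 3.36% of all genes rose. Restricted to the 14967 genes of at least 1 TPM in at least 3 libraries, where 4.3% of genes rose and 11.9% were called in either direction, limma called 9 of 16 members higher and 0 lower (11 higher and 0 lower at an unadjusted p under 0.05). Of these 9, Klra9, Klra13-ps, Klrc2 and Klrg1 had no control library at 1 TPM and entered that fit only through their treated values. Among the 9 members with at least 3 control libraries at 1 TPM or more, 5 were called, Klrc1, Klrk1, Klrd1, Klre1 and Klra7. The same 5 were called in each of 7 fits of these genes that left out a library, an alternative added after the data were seen.

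**Figure D1:**
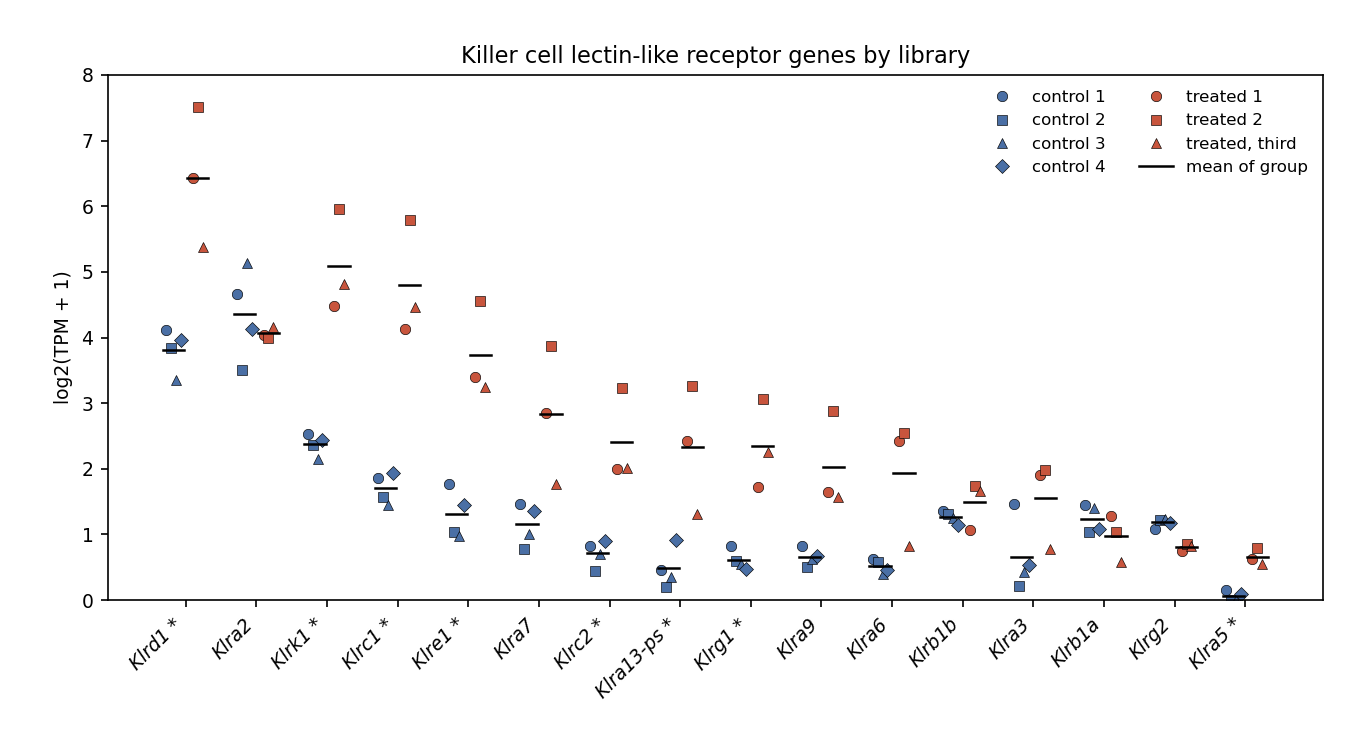
TPM of the 16 members that were called or averaged at least 1 TPM, as log2(TPM + 1), with 1 symbol per library, control in blue, treated in red, group means as black bars and called genes starred. Klrd1 spans 9.24 to 16.2 TPM in control and 40.5 to 181 TPM in treated libraries, whereas the groups overlap for Klra2.

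Of the 4 genes of the receptors built on CD94, Klrd1, Klrc1 and Klrc2 rose and Klrc3 did not pass the test. Klrd1 encodes CD94, the invariant chain that pairs with NKG2 proteins to bind the class Ib molecule Qa-1. Klrd1 stood at 16.2, 13.3, 9.24 and 14.5 TPM in control replicates 1 to 4 and at 85.2, 181 and 40.5 TPM in treated replicates 1 and 2 and the third treated library. The groups did not overlap, and the lowest treated value was in the library with the high mitochondrial share. Its log2 fold change was 2.62 (SE 0.43, limma with Benjamini-Hochberg adjustment, adjusted p = 0.028).

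Klrc1 encodes NKG2A, the inhibitory partner of CD94 and a checkpoint receptor of CD8+ T cells. It stood at 2.64, 1.96, 1.72 and 2.81 TPM in control and at 16.4, 54.4 and 21.1 TPM in treated libraries, in the same order. The lowest treated value was several times the highest control value. The log2 fold change of 3.09 (SE 0.38, limma adjusted p = 0.0223) was the largest of the 28 members in this fit, and it was 3.26 without the third treated library and 2.59 without treated replicate 2.

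Klrc2 encodes NKG2C, the activating partner of CD94, and was at 0.76, 0.36, 0.62 and 0.86 TPM in control and 3, 8.36 and 3.02 TPM in treated libraries. It rose by 1.70 on the log2 scale (SE 0.32, limma adjusted p = 0.0364). Klrc3, which encodes NKG2E, was listed at 0 in 2 control libraries and reached 0.14 TPM in the others, against 0.80, 0.86 and 0.24 TPM in treated libraries. Its groups did not overlap either, but its adjusted p in limma was 0.0583 (0.0116 without the third treated library).

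The 3 Klrc genes are close copies, so the division of reads among them is uncertain. In the GENCODE M21 transcripts, 38.6% of the stretches of 50 bases of Klrc1, 16.3% of those of Klrc2 and 36.3% of those of Klrc3 also occur in another member. Klrd1, Klrk1, Klre1 and Klrg1 share 0% of theirs with any other member. The level of Klrc1 was 2.77 to 5.44 times that of Klrc2 in control and 5.48 to 6.97 times in treated libraries. The control replicate at 5.44 all but met the lowest treated value, and this ratio was not tested. Klrd1 was 3.95 to 5.41 times the summed Klrc level in control and 1.66 to 4.21 times in treated libraries, with overlap.

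Klrk1 encodes NKG2D, the activating receptor for stress-induced ligands, which costimulates CD8+ T cells. It stood at 4.80, 4.15, 3.43 and 4.42 TPM in control and at 21.3, 61.3 and 27.3 TPM in treated libraries. Control libraries were tightly grouped, and each treated library lay far above them. The log2 fold change was 2.72 (SE 0.33, limma adjusted p = 0.0223, and 2.85 with adjusted p = 0.0168 without the third treated library). Its TPM was spread over 6 transcript rows, the largest holding 43.6% of its TPM, and with that row alone the log2 fold change was 2.24 (limma adjusted p = 0.0485). The level of Klrk1 was 1.57 to 2.12 times that of Klrc1 in control and 1.13 to 1.3 times in treated libraries. These ratios did not overlap between the groups, as a description.

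Klre1, Klri1 and Klri2 encode receptors that assemble as pairs, Klre1 with either of the other two. Klre1 was at 2.40, 1.06, 0.97 and 1.72 TPM in control and at 9.51, 22.5 and 8.44 TPM in treated libraries, with a log2 fold change of 2.42 (SE 0.37, limma adjusted p = 0.0265). Its partners were scarce. Klri2 ran from 0.21 to 0.30 TPM in control and from 0.39 to 1.23 TPM in treated libraries, without overlap and with an adjusted p of 0.0973 in limma (0.0349 without the third treated library). Klri1 ran from 0 to 0.81 and from 0.29 to 0.44 TPM, with overlap (limma adjusted p = 0.588). Klrh1 overlapped as well, at 0.04 to 1.14 TPM in control and 0.34 to 1.89 TPM in treated libraries (limma adjusted p = 0.251).

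The 2 Klrg genes went in different directions in their means, and each had groups that did not overlap. Klrg1, an inhibitory receptor for cadherins and a marker of terminal effector CD8+ T cells, was at 0.76, 0.51, 0.46 and 0.39 TPM in control and at 2.31, 7.32 and 3.79 TPM in treated libraries. It rose by 1.74 on the log2 scale (SE 0.30, limma adjusted p = 0.031). Klrg2 was at 1.12, 1.34, 1.36 and 1.26 TPM in control and 0.67, 0.81 and 0.77 TPM in treated libraries, with a log2 fold change of -0.37 (SE 0.13) that did not pass the test (limma adjusted p = 0.137). Klrg2 lies apart from the rest, first in the order of members along the chromosome, with Klrg1 second and the others in a cluster.

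**Figure D2:**
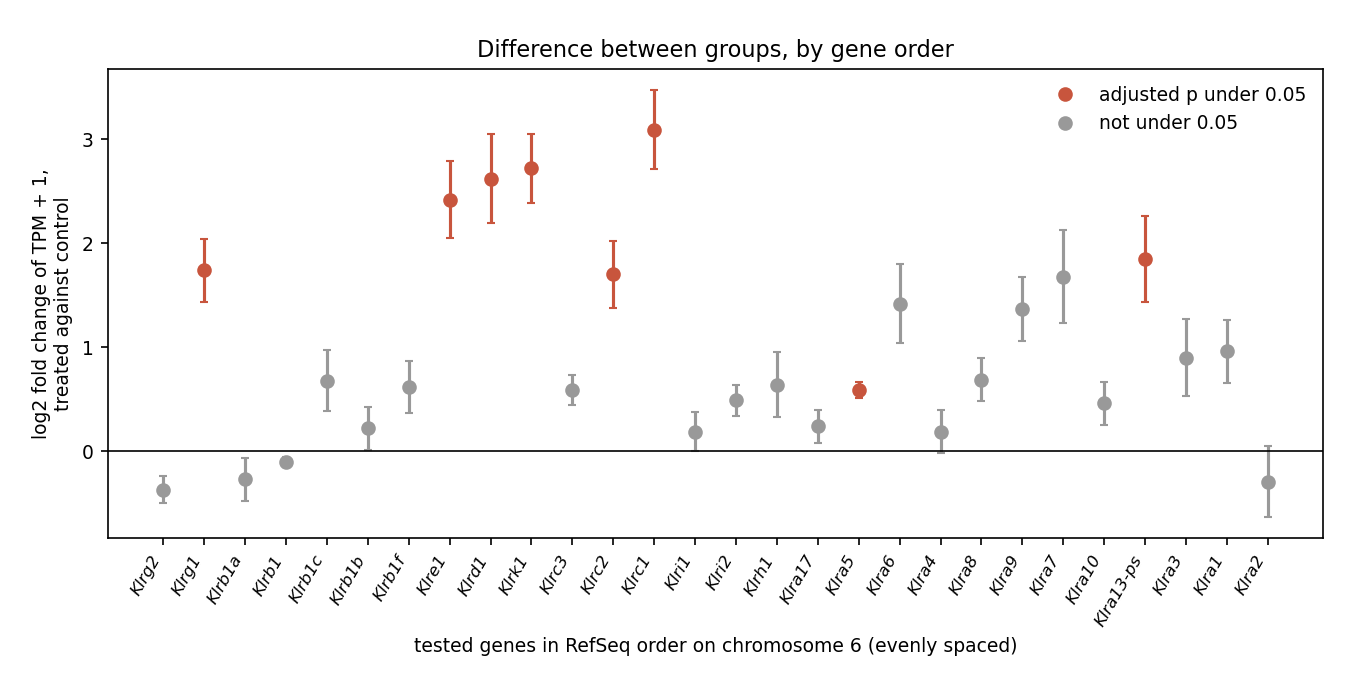
Log2 fold change of TPM + 1 for the 28 compared genes, treated against control, with 1 standard error either way, in RefSeq order on chromosome 6 and evenly spaced, red where the adjusted p was under 0.05. The run from Klre1 to Klrc1 holds 5 of the 8 called genes, and Klrg2 lies below 0.

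The Klra genes encode the Ly49 receptors, most of which bind classical class I molecules on mouse natural killer cells and memory T cells. Of 12 compared, 2 rose (Klra5 and Klra13-ps) and 0 fell by limma with Benjamini-Hochberg adjustment, where 1.53% of all genes fitted rose and 1.79% fell. Klra5 was compared only because of its treated values. At an unadjusted p under 0.05 in limma, 8 were higher and 0 lower, against 6.45% and 17.5% of all genes fitted. The median log2 fold change of the 12 was 0.79. Treated libraries lay above all control libraries for 7 of the 12, against 5.28% of all genes fitted. Without the third treated library 5 were called higher, Klra6, Klra7 and Klra9 in addition, where 3.36% of all genes rose. In that library most of these genes were lower than in the other treated libraries, as 19 of all 28 members were.

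Klra7, the inhibitory Ly49G, was the highest of the group after Klra2 in treated libraries. It was at 1.76, 0.72, 1.00 and 1.57 TPM in control and 6.21, 13.6 and 2.42 TPM in treated libraries, with a log2 fold change of 1.68 (SE 0.45, limma adjusted p = 0.0745, and 0.0115 among genes of at least 1 TPM). Klra13-ps, a transcribed pseudogene, was at 0.37, 0.15, 0.28 and 0.88 TPM in control and 4.34, 8.61 and 1.49 TPM in treated libraries, and its call was at the threshold (1.85, SE 0.41, limma adjusted p = 0.0498). Klra7 and Klra13-ps share sequence, with 12.3% and 13.7% of their stretches of 50 bases in common, so reads may be split between them.

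Klra9, or Ly49I, was at 0.76, 0.41, 0.55 and 0.60 TPM in control and 2.12, 6.35 and 1.96 TPM in treated libraries (limma adjusted p = 0.0534). Klra6, or Ly49F, was at 0.54, 0.49, 0.31 and 0.38 TPM in control and 4.39, 4.83 and 0.77 TPM in treated libraries (limma adjusted p = 0.0745). Klra3, or Ly49C, overlapped, at 1.75, 0.16, 0.34 and 0.45 TPM against 2.73, 2.94 and 0.72 TPM (limma adjusted p = 0.185). Klra5, or Ly49E, was called at a very low level, with 0.11, 0, 0 and 0.07 TPM in control and 0.54, 0.74 and 0.46 TPM in treated libraries (log2 fold change 0.59, SE 0.08, limma adjusted p = 0.0254), and it stayed under 1 TPM in every library. Klra1 (Ly49A) and Klra8 (Ly49H, an activating receptor known for recognising a viral protein) had means of 0.335 and 0.465 TPM in control and 1.84 and 1.40 TPM in treated libraries, without overlap (limma adjusted p = 0.106 and 0.0985). Klra10 and Klra4, the latter the activating Ly49D, overlapped between groups at no more than 1.67 TPM. Among these genes 20.7% of the stretches of 50 bases of Klra3, 31.5% of Klra9, 33.1% of Klra8 and 39.8% of Klra10 occur in another member.

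Klra2 and Klra17 are known from myeloid cells. Klra2 encodes Ly49B, a receptor reported on myeloid cells, and was the most abundant member in 3 of the 4 control libraries. It was at 24.4, 10.3, 34.1 and 16.5 TPM in control and at 15.5, 14.98 and 16.9 TPM in treated libraries, so the treated values fell inside the control range. Its log2 fold change was -0.29 (SE 0.34, limma adjusted p = 0.652). It shares 0% of its stretches of 50 bases with other members. Per 1000 TPM of the 10 macrophage markers Klra2 was at 1.66 to 3.49 TPM in control and 3.84 to 4.46 TPM in treated libraries, whereas per 100 TPM of Adgre1, which encodes the macrophage protein F4/80, it was at 47.6 to 155 and 46.6 to 69.6 TPM. Klra17, or Ly49Q, known from plasmacytoid dendritic cells among others, ran from 0.28 to 0.84 TPM in control and from 0.67 to 1.16 TPM in treated libraries (limma adjusted p = 0.385).

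The Klrb genes encode NKR-P1 receptors, whose ligands are the Clec2 proteins. Of 5 compared, 0 passed limma's test with Benjamini-Hochberg adjustment, with 2 higher and 0 lower at an unadjusted p under 0.05 (Klrb1c and Klrb1f). Klrb1c encodes NK1.1, the classical surface marker of natural killer cells in some strains, and was at 0.42, 0.15, 0.70 and 0.64 TPM in control and 0.82, 2.96 and 0.79 TPM in treated libraries (limma adjusted p = 0.19). Klrb1f, the receptor for Clec2i, ran from 0.26 to 1.2 TPM in control and 0.93 to 2.15 TPM in treated libraries, with overlap (limma adjusted p = 0.17). The inhibitory Klrb1b was at 1.57, 1.47, 1.39 and 1.21 TPM in control and 1.09, 2.35 and 2.16 TPM in treated libraries, with overlap and a log2 change of 0.22 (SE 0.21, limma adjusted p = 0.571). Klrb1a was at 1.73, 1.05, 1.63 and 1.12 TPM in control and 1.44, 1.06 and 0.50 TPM in treated libraries, with overlap, at -0.27 (SE 0.21, limma adjusted p = 0.479). Klrb1 did not exceed 0.11 TPM in any library, with treated values below those of control (limma adjusted p = 0.235).

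The make-up of the family differed between the groups. The 31 symbols together held 67.1, 41.1, 61.8 and 52.8 TPM in control and 186, 411 and 138 TPM in treated libraries. Klra2 made up 25.1% to 55.2% of that sum in control and 3.65% to 12.2% in treated libraries. The Klrc genes made up 3.79% to 6.95% and 10.9% to 17.6%, and Klrk1 5.55% to 10.1% and 11.4% to 19.7%, each without overlap. The share of Klrd1 overlapped, at 15% to 32.4% and 29.3% to 45.7%, as did that of the Klra genes other than Klra2, at 7.3% to 12.3% and 7.79% to 13.4%. These shares are a description, and no test was made on them.

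**Figure D3:**
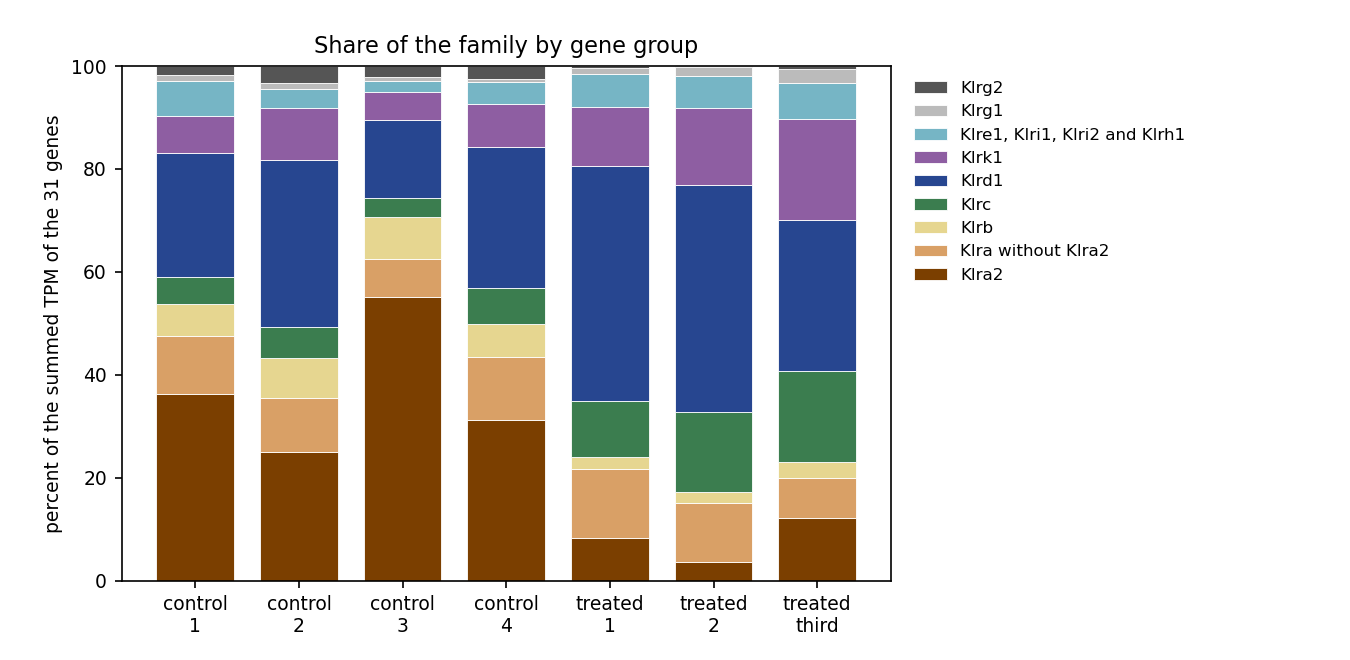
Percent of the summed TPM of the 31 genes held by each gene group, 1 bar per library. Klra2 takes 25.1% to 55.2% of the sum in the 4 control libraries and 3.65% to 12.2% in the 3 treated libraries.

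As a comparison chosen after the values were seen, the receptor genes were set beside the CD3 chains, the signalling subunits of the T cell receptor, in the same libraries. Summed Cd3d, Cd3e and Cd3g were at 45, 46.9, 25.9 and 49.6 TPM in control and at 278, 662 and 158 TPM in treated libraries. Per 100 TPM of these chains, Klrd1 was at 28.4 to 36.1 TPM in control and 25.6 to 30.7 TPM in treated libraries. Klrk1 was at 8.85 to 13.3 and 7.68 to 17.3 TPM, and Klrc1 at 4.18 to 6.65 and 5.92 to 13.3 TPM, on the same scale. For each of these, and for Klrc2, Klre1, Klrg1, Klra6, Klra7, Klra9 and Klra13-ps, the groups overlapped. Klra2 alone of the 11 members so computed did not overlap, at 22 to 132 TPM in control and 2.26 to 10.7 TPM in treated libraries. The highest ratios of Klrk1, Klrc1 and Klrg1 were in the third treated library, at 17.3, 13.3 and 2.40 TPM. These ratios were not tested.

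**Figure D4:**
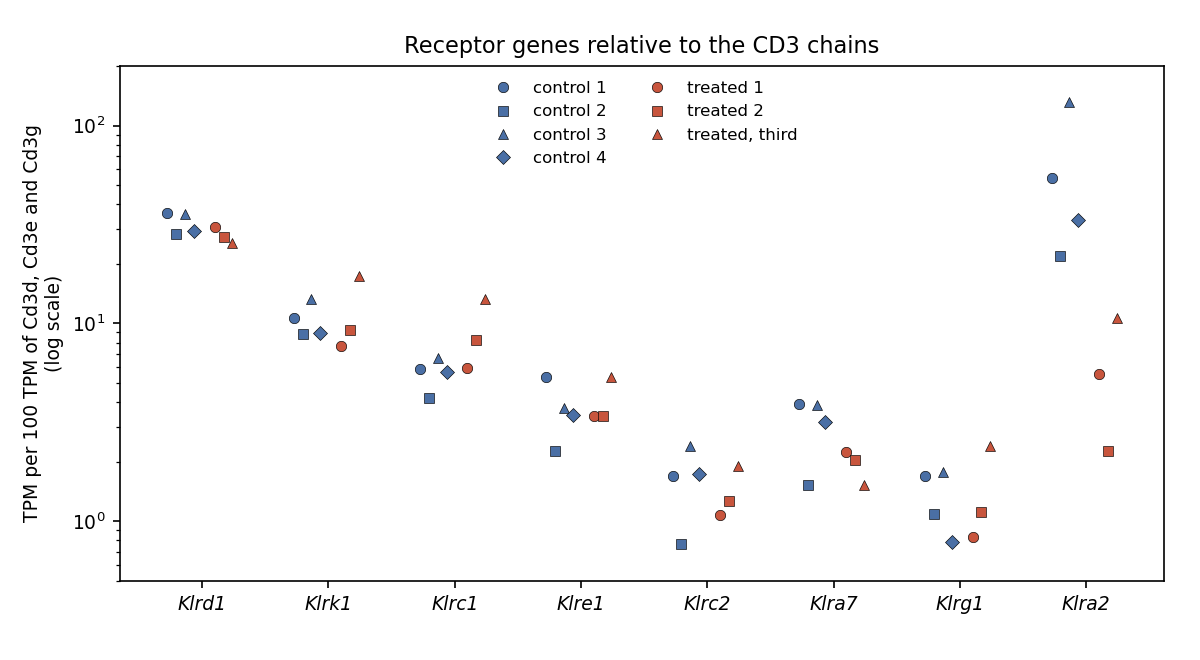
TPM of 8 receptor genes per 100 TPM of Cd3d, Cd3e and Cd3g, on a log axis, with 1 symbol per library, control in blue and treated in red. The groups overlap for 7 of the 8 genes, and for Klra2 all treated values, up to 10.7, lie below all control values, from 22.

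A list of 19 compared genes held adaptors and signalling proteins of these receptors and of T cells at large. Of the 19, 6 rose and 0 fell by limma with Benjamini-Hochberg adjustment (9 higher and 0 lower at an unadjusted p under 0.05). The median log2 fold change of the 19 was 0.63. Of all genes, 1.53% rose, and 6.45% were higher at an unadjusted p under 0.05. Hcst encodes DAP10, the adaptor of NKG2D, and was at 12.2, 10.5, 18.3 and 9.85 TPM in control and at 79.4, 140 and 37.7 TPM in treated libraries (2.51, SE 0.40, limma adjusted p = 0.0275). Tyrobp encodes DAP12, the adaptor of activating Ly49 and NKG2C receptors and of many myeloid receptors, and overlapped at 142 to 388 TPM in control and 118 to 185 TPM in treated libraries (limma adjusted p = 0.506). Fcer1g, a further adaptor on the list, overlapped at 80.01 to 243.25 TPM in control and 71.97 to 101.58 TPM in treated libraries (limma adjusted p = 0.424). The others that rose also act in T cells at large, and Cd247 is on the CD8 T cell list as well. Lck and Zap70, kinases of T cell receptor signalling, the CD3 zeta chain Cd247, and the adaptors Sh2d1a and Sh2d2a rose by 2.87, 2.46, 2.45, 2.75 and 2.88 on the log2 scale. There were 13.5 to 21.2 TPM of Tyrobp per TPM of Hcst in control and 1.15 to 4.90 in treated libraries. On leaving out any control library, 0 of the 32 adaptors, signalling proteins and ligands were called (12 to 14 at an unadjusted p under 0.05, limma), with log2 fold changes of 2.41 to 2.69 for Hcst in these fits.

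Ligand genes were mostly without a difference that passed the test. Of 13 compared, 1 rose and 0 fell by limma with Benjamini-Hochberg adjustment (1 higher and 3 lower at an unadjusted p under 0.05), with a median of 0.04. Among all genes fitted, 1.53% rose and 1.79% fell, with 6.45% higher and 17.5% lower at an unadjusted p under 0.05. Clec2i, a ligand of Klrb1f, was at 3.18, 2.20, 4.72 and 4.12 TPM in control and 10.2, 19.9 and 8.03 TPM in treated libraries (1.53, SE 0.34, limma adjusted p = 0.0485). Raet1e, a ligand of NKG2D, was at 17.9, 22.2, 15.9 and 16.8 TPM in control and 14.2, 9.30 and 7.51 TPM in treated libraries, with a log2 fold change of -0.79 (SE 0.23) with a limma adjusted p of 0.0871, or 0.0402 among genes of at least 1 TPM in at least 3 libraries. In that fit 3 of 11 ligand genes were lower, Raet1e with Raet1d, another ligand of NKG2D, and Cdh2, where 7.59% of all genes were lower. H2-T23, which encodes the Qa-1 molecule bound by CD94 and NKG2 receptors, was at 286 to 336 TPM in control and 222 to 351 TPM in treated libraries (log2 fold change -0.05, SE 0.19, limma adjusted p = 0.899), with a sign that changed with the scaling of the libraries.

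Markers of other cells that carry these receptors were measured in the same libraries. Of 10 natural killer cell genes outside the family, 1 rose, Cd7, where 1.53% of all genes fitted rose. T cells also express Cd7, which is named after its values were seen. The median log2 fold change of the 10 genes was 0.13. At an unadjusted p under 0.05 in limma, 3 were higher and 1 lower, against 6.45% and 17.5% of all genes fitted. Without Cd7 these counts were 2 and 1. The sum of the 10 genes was 17.7 to 22.5 TPM in control and 24.4 to 71.1 TPM in treated libraries. Without Cd7 it was 11.3 to 18.5 TPM and 11 to 18.6 TPM. Ncr1, which encodes the natural killer receptor NKp46, was at 0.53, 0.25, 0.55 and 0.21 TPM in control and 1.12, 1.08 and 0.67 TPM in treated libraries, without overlap (limma adjusted p = 0.0854). Among 6 measured gamma delta T cell genes, Trgc2 and Trgc4 rose, both named after their values were seen. The median log2 fold change of the 6 was 0.64, with 2 higher and 0 lower at an unadjusted p under 0.05 in limma. Together the 6 summed to 5.14 to 13.1 TPM in control and 18.8 to 49.5 TPM in treated libraries. A sum without Trgc2 and Trgc4 was not computed. Of the 10 natural killer cell genes and these 6, 0 were at 0 in all 7 libraries. The part of these cells in the receptor differences was not tested.

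Of 10 macrophage genes 0 passed in limma with Benjamini-Hochberg adjustment (0 higher and 4 lower at an unadjusted p under 0.05), with a median of -0.60. Of 8 mesothelium and tumour epithelium genes 4 fell, Krt8, Krt18, Krt19 and Cldn3 (0 higher and 7 lower at an unadjusted p under 0.05). The 8 summed to 2150 to 2670 TPM in control and 815 to 1530 TPM in treated libraries. Among all genes fitted, 1.79% fell, and 6.45% were higher and 17.5% lower at an unadjusted p under 0.05. The part of either list in the receptor differences was not tested.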

How the data were processed

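Poly(A) RNA of 4 control and 3 treated libraries was measured. The authors deposited TPM values for 149132 transcript rows. The submitters' processing notes name mm39 and the tools fastp, HISAT2 and StringTie. What each did, its version, and how TPM was obtained are not given in the sources used here. Columns were matched to samples by name, except that of the third treated library, which names only its group and was never paired. There were 0 other value columns. The 1001 rows without a symbol, 0.307% to 0.618% of TPM, were left out.

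TPM was summed per symbol, and symbols above 0 in at least 3 of 7 libraries (24352) were taken to log2(TPM + 1) and fitted with limma 3.58.1 in R 4.3.3 (intensity trend, two-sided, Benjamini-Hochberg adjustment, called under 0.05). On simulated data of this comparison over 24352 genes, recovery was 35%, 85% and 92.5% for rises of 1, 2 and 3 on the log2 scale, and 9 of 24152 unchanged genes were called. The changed genes were drawn from those averaging at least 1 TPM, a mean that 15 of the 31 members reached. The simulated noise was independent between genes and libraries. These rates therefore do not cover lower members, or shifts that many genes of a library share. Alternatives changed filter, pseudocount, scaling, transcript rows, variance model, weights, block and libraries. Members and lists were chosen with earlier results of these data known. TPM is given per library for members that were called or averaged at least 1 TPM. Stretches of 50 bases were compared in GENCODE M21. Precision is limited by the number of libraries.

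Marker lists for CD4 T cells, innate lymphoid type 2, dendritic and mast cells had 5, 4, 5 and 6 genes compared. Their median log2 fold changes were 0.40, 0.28, 0.02 and -0.33. Of these genes, Foxp3 and Ctla4 of the CD4 T cell list rose and Kit of the mast cell list fell. Among all genes fitted, 1.53% rose and 1.79% fell. At an unadjusted p under 0.05 in limma, 2, 1, 1 and 0 were higher and 0, 0, 0 and 1 lower, in the order of the lists. Of all genes fitted, 6.45% were higher and 17.5% lower at that threshold. The CD4 T cell genes summed to 1.67 to 4.85 TPM in control and 14.6 to 50.5 TPM in treated libraries. The other sums, in the same order, were 3.67 to 5.25 and 3.97 to 12 TPM, 17.6 to 20.2 and 12.4 to 20 TPM, and 38 to 47 and 15.6 to 31.6 TPM.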

Additional observations from a re-analysis of the deposited data

Results flagged for a closer look

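In 4 of the 31 members, 1 of the 4 control libraries met Dixon's criterion at 95% for a gap to the other 3. Chance meets it in about 1 in 20 groups of normally distributed values, a rate that values this near 0 need not follow. The share over all genes was not computed. Klrh1 and Klri1 were at 1.14 and 0.81 TPM in control replicate 1, against at most 0.15 and 0.10 TPM in the others. Klrb1f was at 1.2 TPM in control replicate 3, against 0.26 to 0.41 TPM. Klra14-ps was at 0.12 TPM in control replicate 4 and listed at 0 in the others, where any value above 0 would meet the criterion.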

How the results depend on the processing

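Of the members, partners and all genes fitted, limma called 8, 7 and 810 (Benjamini-Hochberg adjustment). Among genes of at least 1 TPM in at least 3 libraries 9, 12 and 1779 were called. With no filter the counts were 0, 0 and 7 (18, 13 and 6003 at an unadjusted p under 0.05), with a pseudocount of 5 they were 2, 0 and 70 and with 0.1 they were 11, 9 and 1262. Median-of-ratios scaling gave 14, 11 and 1851 (1142 higher and 709 lower, against 373 and 437), scaling without mitochondrial genes 14, 11 and 2307 (1176 and 1131), no intensity trend 6, 4 and 530 (133 and 397), and array weights 17, 14 and 3327. The cause was not tested. Scaling without mitochondrial genes also left out the 4 mitochondrial-like pseudogenes. The scalings moved the median log2 fold change of all genes fitted by less than 0.1, but better expressed genes could move more. Among genes of at least 1 TPM in at least 3 libraries the median was -0.24 without such scaling. With median-of-ratios scaling Klra2 went from -0.29 to -0.05, Tyrobp from -0.41 to -0.16 and Raet1e from -0.79 to -0.56. Leaving out each library gave 0 to 13, 0 to 9 and 11 to 2263, with 16 to 21 members at an unadjusted p under 0.05 (19 with all libraries), and in an alternative added after seeing the data, the filter of at least 1 TPM together with each left-out library, 9 to 10, 8 to 11 and 964 to 3434 (1287, 1483, 1363 and 1479 of all genes without control replicates 1, 3 and 4 and the third treated library). The directions of the 8 called members did not change in any of these. The replicate block, over replicates 1 and 2 of both groups, called 0, 0 and 0 (16, 12 and 2974 at an unadjusted p under 0.05). The labels do not say that equal numbers pair the samples, so the numbers were not taken to pair them. Same-numbered libraries had correlations of deviations of -0.0195 and -0.0896, and differently numbered ones 0.0328 and 0.168. So few correlations cannot decide whether the samples were paired. With the highest transcript row only, Klrb1b was at -0.06. H2-T23 was at 0.20 and 0.15 with these 2 scalings, 0.11 with array weights, 0.08 with the replicate block, and 0.00 and 0.14 without control replicate 1 and without the third treated library, with either filter, and at -0.19 without treated replicate 2.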
